A study of Saccharomyces cerevisiae with 9 samples.

Results

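Transcript levels of the proteasome were followed in budding yeast strains that differ, per the labels, at residue 42 of histone H3. The set comprises 35 genes chosen by name: 14 subunits of the core particle, 18 subunits of the regulatory particle, and RPN4, UMP1 and BLM10, which act on the proteasome but are not subunits of either particle. All 35 were found among the 5449 genes with a probe set, each with 1 probe set, and all 35 were among the 4087 genes bright enough to be tested. Total RNA of 9 cultures of strain JPY12, grown in rich YPD medium to an A600 of about 0.7, was hybridised to 1-colour Affymetrix arrays, 1 array per culture. Histone H3 was expressed from a plasmid in every strain, the reference strains included. It carried alanine in place of lysine 42 (K42A, n = 2), leucine (K42L, n = 2), glutamine (K42Q, n = 2) or the wild-type lysine (wild type, n = 3). Lysine carries a positive charge and the replacing residues carry none. The design text calls the replicates biological, and 2 arrays per mutant limit the precision of every value below.

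The proteasome is the protease that degrades proteins marked with ubiquitin. Its core particle is a barrel of stacked rings: the alpha rings gate the entrance, and the beta rings hold the active sites inside. The regulatory particle caps the barrel. Its base holds a ring of ATPases that unfold substrates, and its lid removes the ubiquitin. In budding yeast most of these genes share a promoter element read by the activator Rpn4, which is itself a short-lived substrate of the proteasome, so that the subunits are known for being transcribed together.

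By the median signal of probe sets for genes outside the S. cerevisiae annotation, here called background, the arrays form 2 sets, called batches below although no label gives a batch. It was 2.2 to 2.65 for K42A and for replicates 2 and 3 of wild type, and 1.0 to 1.3 for K42L, K42Q and replicate 1 of wild type. Each comparison with wild type was therefore repeated with the batch as a block, which leaves K42A with 2 wild-type arrays of its own batch and each of K42L and K42Q with 1. The 3' to 5' signal ratio of TDH1, a measure of RNA integrity, was 1.32 and 1.41 in K42A and 1.66 and 1.65 in K42L. It was 1.18 and 1.17 in K42Q, and 1.48 to 1.56 in wild type. The same ratio of ACT1 was 1.18 and 1.22 in K42A and 1.11 and 1.14 in K42L. It was 1.06 and 1.11 in K42Q, and 1.18 to 1.19 in wild type. K42L was thus above wild type by TDH1 and below it by ACT1. The part of these ratios in the results was not tested. HHT2, the H3 gene measured here, had signals of 1549 and 1354 in K42A, 1818 and 1783 in K42L, 1826 and 1759 in K42Q, and 1739, 1633 and 1683 in wild type, and a probe set cannot read the substitution. Because every array was scaled to a common mean, less proteasome mRNA per cell and more of all other mRNA cannot be told apart.

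The proteasome genes varied little over the 9 arrays. Their signals lay between 454.5 and 1262, far above the 95th percentile of background, which was at most 9.575. Their mean signals ranked between the 75.5th and the 91.6th percentile of the genes tested. For each gene the highest of the 9 signals was divided by the lowest. This ratio had a median of 1.21 over the 35 genes, against 1.44 over all 4087 genes and 1.42 over the 1022 genes above the 75th percentile of signal. Only 2 of the 35 genes, SCL1 (1.65) and UMP1 (1.51), exceeded 1.5, which is 5.71% of them, against 40.8% of all genes and 33.0% of the 1022 bright ones. The steadiest was RPN11, for the deubiquitinase of the lid, at 1.07. Its signals were 580.3 and 569 in K42A, 597.5 and 582 in K42L, 566 and 574 in K42Q, and 576, 558 and 558 in wild type. The groups of RPN11 lay within a narrow band, with K42L just above wild type. These ratios are a description, with no test.

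**Figure D1:**
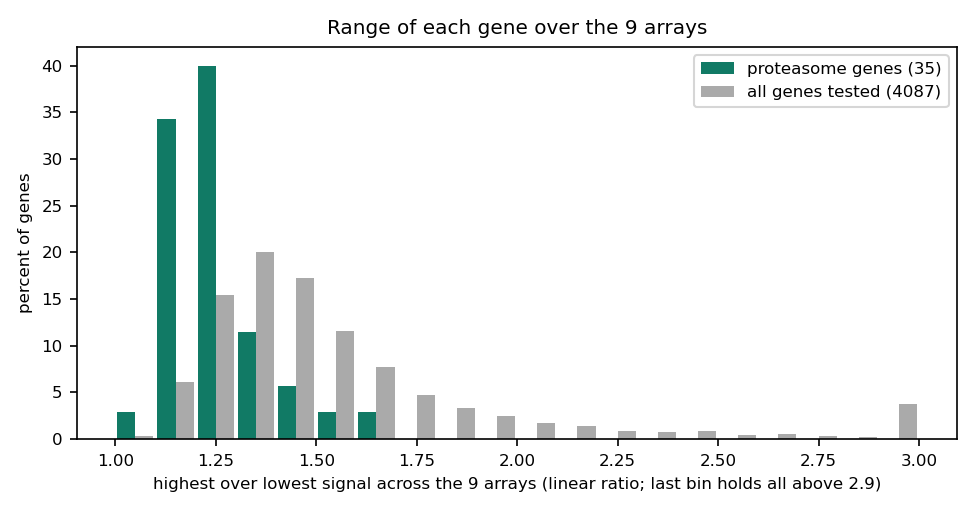
Highest over lowest signal of each gene across the 9 arrays (horizontal axis, linear ratio in bins of 0.1) against the percentage of genes (vertical axis), for the 35 proteasome genes and for all 4087 genes tested; the last bin holds every ratio above 2.9. The proteasome genes lie between 1.07 and 1.65, with a median of 1.21 against 1.44 for all genes.

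K42A was set against wild type to ask how these transcripts respond when alanine takes the place of lysine 42. No gene for a subunit of either particle was called by limma at an adjusted p under 0.05. That is 0 of the 14 core genes and 0 of the 18 regulatory particle genes. PRE7 alone among these 32 had an unadjusted p under 0.05 (0.20 ± 0.08), where 2163 of all 4087 genes did. RPN4 and UMP1 rose. These are 2 of 35 genes, or 5.71%, where 22.6% of all genes rose, and 0 of 35 fell, where 19.7% of all genes did. The count of genes that rose was 9 with quantile scaling, 8 with cyclic loess and 5 with spike-in scaling within the batch, subunit genes included, and 0 fell under each. The median log2 difference of the 35 genes was -0.03, turning to 0.08 with quantile scaling and 0.13 with cyclic loess, against -0.01 over all genes. Over the 1022 bright genes it was -0.23, and of these bright genes 7.44% rose and 38.6% fell. Scaling also moved the balance of calls over all genes: 925 rose and 807 fell as scaled by the authors, and 728 rose and 991 fell with quantile scaling. With cyclic loess 804 rose and 698 fell, and with spike-in scaling within the batch 1302 rose and 133 fell. The 95% intervals of all 35 differences lay within a 1.5-fold change in either direction.

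UMP1 (YBR173C) encodes a chaperone that guides assembly of the core particle and is then degraded by it. Its signal was 774 and 693 in K42A, 533 and 511 in K42L, 628.5 and 659 in K42Q, and 571, 576 and 581 in wild type. Both K42A and both K42Q arrays lay above the narrow band of wild type, both K42L arrays lay below it, and no 2 of the 4 groups overlapped. UMP1 averaged 734 ± 57.3 in K42A and 576 ± 5.15 in wild type (SD, n = 2 and 3), a rise of 0.35 ± 0.07 on the log2 scale (SE; adjusted p of 0.00326 by limma), or 1.27-fold. It was called in all 24 alternative settings, with log2 differences of 0.27 to 0.53, and in the batch-blocked fit the difference was 0.34 (adjusted p of 0.00114). Against wild type UMP1 was not called in K42Q (0.16 ± 0.07, adjusted p of 0.0843) or in K42L (-0.14 ± 0.07, adjusted p of 0.306).

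RPN4 (YDL020C) encodes the transcriptional activator of the proteasome genes. Its signal was 803 and 936 in K42A, 724 and 771 in K42L, 704 and 642 in K42Q, and 778, 680.3 and 726 in wild type. The K42A arrays were the highest of the 9, and both K42L and K42Q overlapped wild type. RPN4 averaged 869 ± 94.1 in K42A and 728 ± 48.8 in wild type (SD, n = 2 and 3). It rose by 0.25 ± 0.09 on the log2 scale (adjusted p of 0.0458), just inside the threshold. The batch-blocked rise was 0.30 (adjusted p of 0.00804). It was called in 13 of 24 alternatives, and without K42A replicate 2 the difference was 0.14 (adjusted p of 0.328). UMP1 was then the 1 gene called higher, as it was without any 1 of the K42L or K42Q arrays or wild-type replicates 2 and 3. Over the 32 subunit genes, most of which its product is known to activate, the K42A differences ran from -0.18 to 0.20. BLM10 (YFL007W), for a cap that can replace the regulatory particle, had signals of 538 and 565 in K42A, 533 and 549 in K42L, 511 and 483 in K42Q, and 545, 572 and 560.1 in wild type. Both K42Q arrays of BLM10 lay below all of wild type, while K42A and K42L overlapped it. The K42Q difference just missed the threshold (-0.17 ± 0.06, adjusted p of 0.0519).

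**Figure D2:**
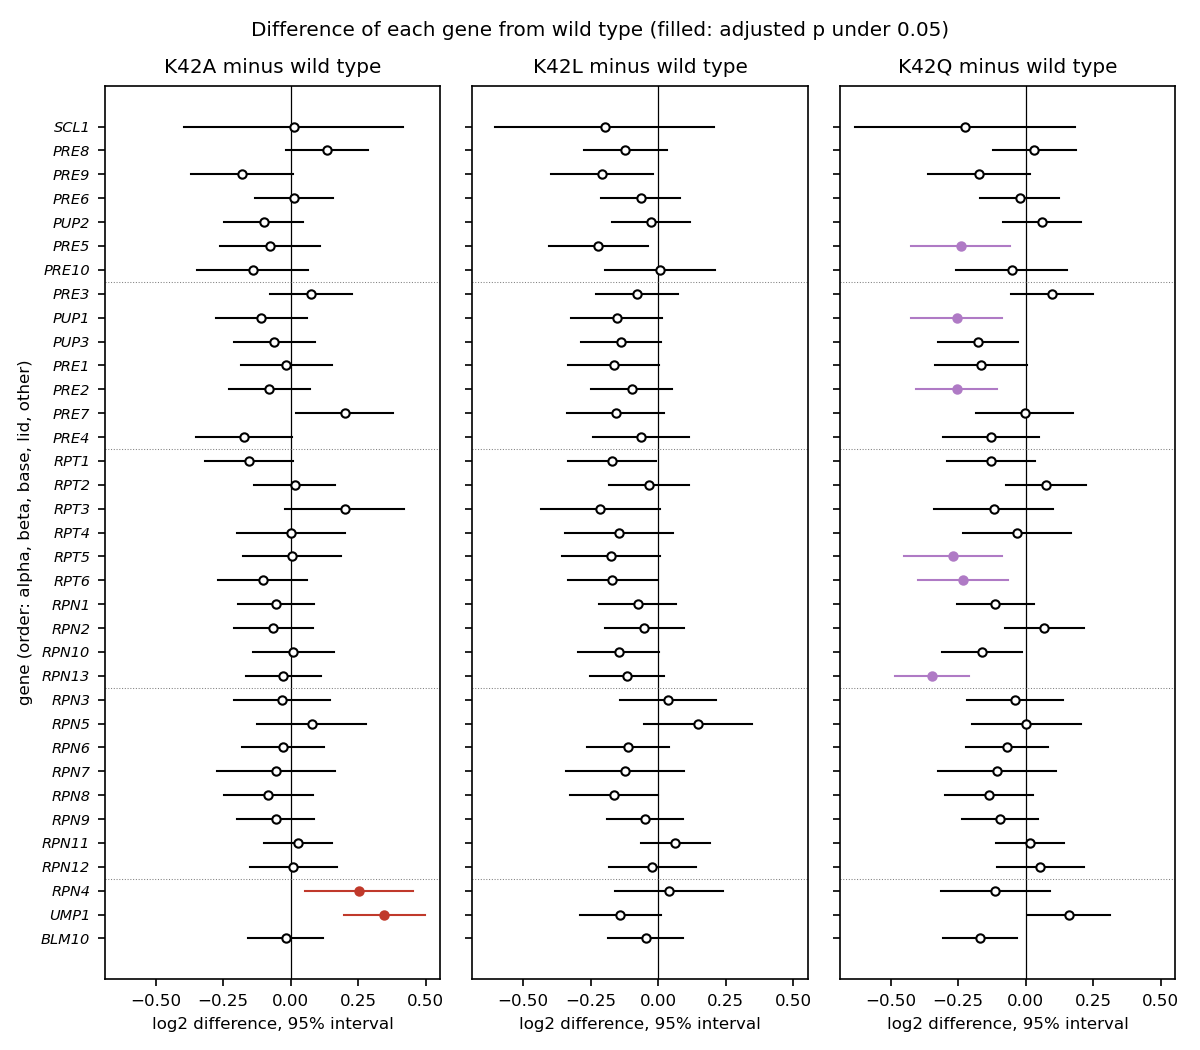
Log2 difference of each of the 35 genes from wild type (horizontal axis) in K42A, K42L and K42Q, with its 95% interval from limma; genes run down the vertical axis by class, and filled points passed an adjusted p under 0.05. Filled points are RPN4 and UMP1, both higher, in K42A, none in K42L, and 6 lower genes in K42Q.

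In the batch-blocked fit, and likewise without wild-type replicate 1, SCL1, PRE9 and PUP1 fell in K42A while RPN4 and UMP1 rose. Those 3 of 35, or 8.57%, compare with 27.6% of all genes lower and 27.2% higher in each of these fits. PRE9 (YGR135W), for the one core subunit that yeast can live without, had signals of 745 and 778 in K42A, 756 and 737 in K42L, 790.2 and 742 in K42Q, and 772, 904 and 921 in wild type. It stood at -0.18 ± 0.08 without the block (adjusted p of 0.108) and at -0.26 with it (adjusted p of 0.00279). PUP1 stood at -0.17 with the block. SCL1 (YGL011C), for the first alpha subunit, had signals of 747 and 842 in K42A, 648 and 725.5 in K42L, 658 and 689 in K42Q, and 577, 951 and 887 in wild type. The wild-type arrays of SCL1 held both the lowest and the highest of the 9 signals. Its K42A difference was 0.01 ± 0.18 without the block and -0.21 with it (adjusted p of 0.0345).

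K42L was set against wild type to ask the same of leucine. No proteasome gene was called higher or lower (0 of 35 in each direction by limma), and few genes of any kind were: 0.318% of all genes rose and 0.343% fell. An unadjusted p under 0.05 was reached by 4 of the 35, and by 722 of all 4087 genes. The log2 differences ran from -0.22 for PRE5 to 0.15 for RPN5, a scaffold subunit of the lid. Of the 35 values 30 were below 0, where 1910 of all 4087 were. Their median was -0.12 against 0.01 over all genes. The 35 values rest on the same arrays, so their signs are not independent. All 10 base genes and all 7 beta genes were below 0, as were 6 of the 7 alpha genes and 5 of the 8 lid genes. The intervals of 34 genes lay within a 1.5-fold change, and that of SCL1 did not.

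The number of calls in K42L depended on which wild-type arrays were used. In the batch-blocked fit 0.318% of all genes rose and 0.147% fell, again with 0 of 35 proteasome genes, and the median of the 35 moved to -0.06. Without wild-type replicate 1, the wild-type array that shares the low background of K42L, 14 of 35 genes were called lower, or 40.0%, where 16.5% of all genes were. None was called higher, where 16.9% of all genes were. The 14 comprised 7 core genes (SCL1, PRE9, PRE5, PUP1, PUP3, PRE1 and PRE7) and 7 regulatory particle genes (RPT3, RPT4, RPT5, RPT6, RPN7, RPN8 and RPN10), with differences between -0.42 and -0.17. The batch as a block called 0 of these 14.

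The wild-type arrays themselves differed in the same direction. Wild-type replicate 1 was the lowest of the 3 wild-type arrays for 24 of the 35 genes, or 68.6%, against 45.3% of all genes. The median log2 difference of replicate 1 from the mean of replicates 2 and 3 was -0.09 over the 35 genes and -0.01 over all genes. SCL1 was furthest apart (-0.67), followed by RPN7, a lid subunit (-0.28), while PRE10, an alpha subunit, lay the other way (0.25). With 1 array against 2 this is a description of these arrays, with no test.

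**Figure D3:**
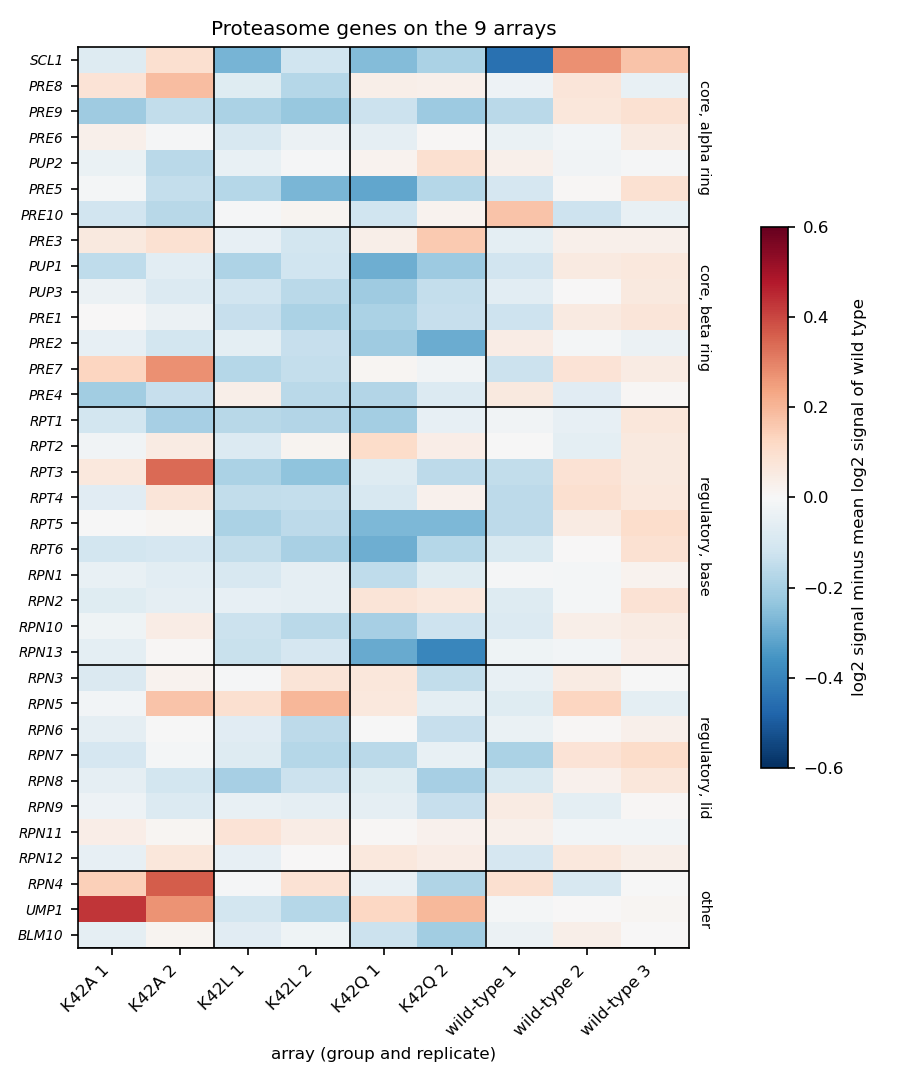
Log2 signal of the 35 genes (rows, by class) on the 9 arrays (columns, by group and replicate) minus the mean log2 signal of the 3 wild-type arrays; red is above and blue below that mean. UMP1 and RPN4 are red in K42A, RPN13 is blue in K42Q, and SCL1 runs from blue to red within wild type.

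K42Q was set against wild type to ask about glutamine, a residue often used to mimic acetylated lysine. Here 6 of 35 genes fell, or 17.1%, close to the 18.2% of all genes that did. None rose, where 21.4% of all genes did. Of the 1022 bright genes 29.3% fell and 8.02% rose. The balance of the 35 turned with scaling: 4 rose and 1 fell with quantile scaling, and 6 rose and 1 fell with cyclic loess. With spike-in scaling within the batch 1 rose and 0 fell. The 6 comprised 3 core genes (PRE5, PUP1 and PRE2) and 3 base genes (RPN13, RPT5 and RPT6). Of the 8 lid genes among the 35, 0 were called. SEM1, a lid gene outside the 35, was called higher in K42Q (0.44 ± 0.10, adjusted p of 0.00809 by limma). The median of the 35 genes was -0.11, turning to 0.03 with cyclic loess and 0.07 with spike-in scaling within the batch, against 0.00039 over all genes and -0.11 over the 1022 bright genes. Over all genes 873 rose and 745 fell as scaled by the authors, and 694 rose and 950 fell with quantile scaling. With cyclic loess 804 rose and 723 fell, and with spike-in scaling 1326 rose and 199 fell. The furthest gene stood at 0.787 of its wild-type level, and the intervals of 34 genes lay within a 1.5-fold change, with SCL1 again the exception.

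RPN13 (YLR421C), for a ubiquitin receptor of the base, fell most. Its signal was 588 and 615 in K42A, 559 and 572 in K42L, 498 and 467 in K42Q, and 603, 606 and 629.9 in wild type. The K42Q arrays of RPN13 were the lowest of the 9 and stood clear of every other group. RPN13 averaged 482 ± 21.6 in K42Q and 613 ± 14.8 in wild type (SD, n = 2 and 3). It fell by 0.35 ± 0.06 on the log2 scale (adjusted p of 0.00218), by 0.32 in the batch-blocked fit (adjusted p of 0.004185), and was called in 23 of 24 alternatives.

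PRE2 (YPR103W) encodes the beta subunit with the chymotrypsin-like active site. Its signal was 1160.1 and 1114.5 in K42A, 1154 and 1093 in K42L, 1037 and 977 in K42Q, and 1240.1, 1193 and 1173 in wild type. All 6 mutant arrays lay below the 3 wild-type arrays, those of K42Q lowest. PRE2 fell by 0.26 ± 0.07 in K42Q (adjusted p of 0.0144) and by 0.30 in the batch-blocked fit (adjusted p of 0.00722). RPN13 and PRE2 were the only 2 of the 6 called genes to remain called with the block.

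PUP1 (YOR157C) encodes the beta subunit with the trypsin-like active site, with signals of 822 and 875 in K42A, 804 and 841 in K42L, 747 and 786 in K42Q, and 844, 949.9 and 955 in wild type. PUP1 fell by 0.26 ± 0.08 in K42Q (adjusted p of 0.0241). PRE5 (YMR314W), an alpha subunit gene, had 763 and 696 in K42A, 683.5 and 636 in K42L, 619 and 683 in K42Q, and 718, 772 and 819.7 in wild type. The K42Q arrays of both genes lay below wild type, and so did the K42L arrays. PRE5 fell by 0.24 ± 0.08 in K42Q (adjusted p of 0.0423).

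RPT5 and RPT6 (YOR117W and YGL048C) encode ATPases of the base. RPT5 had signals of 809 and 818.5 in K42A, 711 and 727 in K42L, 673 and 673 in K42Q, and 727, 839 and 874 in wild type. RPT6 had 992 and 998 in K42A, 966 and 936 in K42L, 873 and 948.5 in K42Q, and 1004, 1070.2 and 1138 in wild type. In both genes wild-type replicate 1 was the lowest wild-type array, nearest to K42L and K42Q. RPT5 fell by 0.27 ± 0.08 and RPT6 by 0.23 ± 0.07 in K42Q (adjusted p of 0.026 and 0.0322). In the batch-blocked fit PUP1, PRE5 and RPT6 each stood at -0.14 and RPT5 at -0.11, and none of these 4 was called. Without K42Q replicate 2 the count of genes that fell in K42Q was 1 (RPN13), and it was 2 without K42Q replicate 1, wild-type replicate 2 or wild-type replicate 3.

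With the batch block 3 of 35 genes fell in K42Q, or 8.57%, where 20.6% of all genes fell and 22.6% rose. They were RPN13, PRE2 and PRE10, the last at -0.22 (adjusted p of 0.0401). Without wild-type replicate 1 the count was 14 of 35, or 40.0%, where 27.8% of all genes fell and 29.0% rose. Those were 7 core genes, 6 regulatory particle genes and BLM10.

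**Figure D4:**
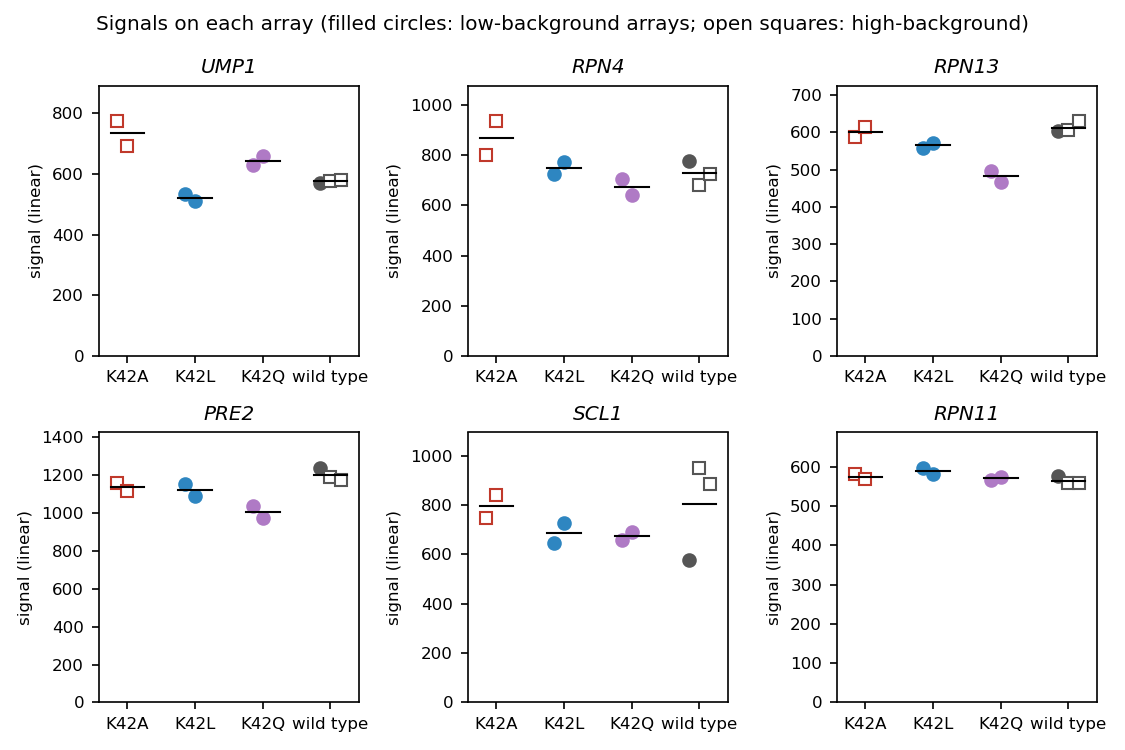
Signal on a linear scale (vertical axis, from 0) of UMP1, RPN4, RPN13, PRE2, SCL1 and RPN11 on every array, by group; filled circles are arrays of low background, open squares arrays of high background, and the bar is the group mean. UMP1 is highest in K42A (734 against 576 in wild type), RPN13 lowest in K42Q (482 against 613), and SCL1 spans 577 to 951 within wild type.

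In each class the gene with the smallest differences from wild type is given next. In the alpha ring this was PRE6, with signals of 1069 and 1039.9 in K42A, 979 and 1022 in K42L, 1008 and 1052 in K42Q, and 1019, 1034 and 1088 in wild type. Its differences from wild type lay between -0.07 and 0.01. With quantile scaling PRE6 was called higher in K42A, at 0.20. In the beta ring PRE3, for the subunit with the caspase-like active site, had 966 and 989.5 in K42A, 898 and 858 in K42L, 951.5 and 1034 in K42Q, and 889.8, 948 and 946 in wild type. The K42A and K42Q arrays of PRE3 lay just above wild type and neither difference was called (0.08 in K42A and 0.10 in K42Q). With quantile scaling the K42A difference of PRE3 was 0.24 and was called.

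In the base RPN2, a large scaffold subunit, had 684 and 694.5 in K42A, 697 and 695 in K42L, 760.1 and 752 in K42Q, and 684, 715 and 765 in wild type. In the lid RPN3 had 474 and 512 in K42A, 501 and 532 in K42L, 527.5 and 454.5 in K42Q, and 489, 521 and 502 in wild type. Both genes overlapped wild type in every mutant, with differences of at most 0.07 for RPN2 and 0.04 for RPN3. The remaining genes (PUP2, PRE10, PUP3, PRE1, PRE4 and PRE7 of the core, RPT1, RPT2, RPT3, RPT4, RPN1 and RPN10 of the base, RPN5, RPN6, RPN7, RPN8, RPN9, RPN11 and RPN12 of the lid, and PRE8, PRE9 and SCL1) were not called in any mutant against wild type. Among these 22 the differences ran from -0.23 for SCL1 in K42Q to 0.20 for PRE7 in K42A (adjusted p of 0.349 and 0.0688). SCL1 turned in direction with the batch block, to 0.22 in K42Q and 0.25 in K42L, and was not called there either (adjusted p of 0.0762 and 0.257).

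The 6 ATPases of the base form the ring that threads substrates into the core. Of the mutants, K42L had the lowest mean signal for RPT1, RPT2, RPT3 and RPT4, and K42Q for RPT5 and RPT6. RPT1 had signals of 892 and 840.2 in K42A, 860.0 and 852 in K42L, 836 and 932 in K42Q, and 949.7, 932 and 1012 in wild type, so that all but 1 of the 6 mutant arrays lay below wild type. RPT2 had 599 and 629.5 in K42A, 574 and 614.5 in K42L, 656 and 626 in K42Q, and 608, 584 and 633 in wild type, overlapping in every mutant. RPT4 had 619 and 682.5 in K42A, 586 and 588 in K42L, 608.5 and 662 in K42Q, and 582, 694 and 679 in wild type, where replicate 1 alone was as low as K42L. RPN10, a ubiquitin receptor like RPN13, stood at 0.0090 in K42A, -0.15 in K42L and -0.16 in K42Q (adjusted p of 0.92, 0.291 and 0.0821).

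The lid genes of the set, which leaves out SEM1, lay closest to wild type in K42A, between -0.08 and 0.08. They lay between -0.16 and 0.15 in K42L and between -0.14 and 0.05 in K42Q. RPN8, the partner of the deubiquitinase Rpn11, was at the low end in every mutant, with signals of 827 and 797 in K42A, 748.5 and 786 in K42L, 817 and 749.5 in K42Q, and 806, 874 and 901 in wild type. Only 1 wild-type array, replicate 1, lay within the range of the mutants. RPN5 was highest of the lid genes in K42L, with 819 and 881 in K42L against 729, 839 and 737 in wild type. Its groups overlapped.

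Among protein-coding genes of the R64 annotation, PRE4 and RPN12 lie with 1 gene between them, as do RPT4 and RPN8, and none of these 4 was called in any mutant against wild type.

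The 3 substitutions were also set against each other. K42A and K42L differed in 4 genes, all higher in K42A (11.4% of 35, where 22.1% of all genes were higher). None was lower, where 21.9% of all genes were. Of the 1022 bright genes 9.98% were higher and 43.1% lower in K42A. UMP1 was higher by 0.49 ± 0.07 on the log2 scale (adjusted p of 0.00108), the widest gap among the 35 genes in this comparison. RPT3 (YDR394W), an ATPase gene of the base, had signals of 613 and 743 in K42A, 515 and 497.5 in K42L, 556.5 and 526 in K42Q, and 531, 624 and 612 in wild type. PRE7 (YBL041W), a beta subunit gene, had 906 and 1001 in K42A, 735 and 751 in K42L, 836 and 817 in K42Q, and 757, 877 and 856 in wild type. PRE8 (YML092C), an alpha subunit gene, had 732 and 786 in K42A, 657 and 614 in K42L, 708 and 706 in K42Q, and 676, 728 and 671 in wild type. In these genes K42A was highest and K42L lowest on average, with wild type between. RPT3 was higher by 0.41 ± 0.11, PRE7 by 0.36 ± 0.09 and PRE8 by 0.26 ± 0.07 (adjusted p of 0.0132, 0.0105 and 0.0217). K42A and K42L lie in different batches, and with the batch block, which rests on the wild-type arrays, UMP1 remained called (0.47) while RPT3, PRE7 and PRE8 did not (0.20, 0.16 and 0.21). With that block RPN4 was also called higher (0.36, adjusted p of 0.0494) and SCL1 lower (-0.46, adjusted p of 0.0145) in K42A than in K42L. The count of 4 was 1 without K42A replicate 2 or K42L replicate 1, 2 without K42L replicate 2, and 10 without wild-type replicate 1. It was 15 with quantile scaling and 18 with cyclic loess. Over all 4087 genes 743 and 869 were higher with these scalings, and 1208 without wild-type replicate 1.

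K42Q and K42L, which share a batch, differed in 2 genes. UMP1 was higher by 0.30 ± 0.07 in K42Q (adjusted p of 0.013) and RPN13 was lower by 0.23 ± 0.07 (adjusted p of 0.0284). That is 2.86% of 35 in each direction, where 16.7% of all genes were higher and 14.8% lower. Of the 1022 bright genes 9.20% were higher and 25.9% lower. K42A and K42Q differed in 2 genes as well, both higher in K42A: RPN4 by 0.37 ± 0.10 (adjusted p of 0.0314) and RPN13 by 0.32 ± 0.07 (adjusted p of 0.0138). That is 5.71% of 35, where 9.96% of all genes were higher, and 0 of 35 were lower, where 8.15% of all genes were. Of the 1022 bright genes 6.85% were higher and 7.93% lower. In the batch-blocked fit RPN4 was higher by 0.51 (adjusted p of 0.0185), and RPN13, at 0.28, was not called (adjusted p of 0.0542), while SCL1 was called lower (-0.43, adjusted p of 0.0302). Between K42Q and K42L that fit also called PRE3 higher (0.18) and PRE2 lower (-0.16). With quantile scaling 10 genes were higher in K42A than in K42Q, and with spike-in scaling 0 were. Over all 4087 genes 535 and 204 were higher with these scalings, and 873 without wild-type replicate 1. Between K42Q and K42L, 4 genes were higher with quantile scaling and 7 with cyclic loess, where 576 and 675 of all genes were. The calls between K42A and K42Q numbered 0 without K42A replicate 2 or either K42Q replicate, 1 without either K42L replicate, and 9 without wild-type replicate 1. Between K42Q and K42L, 0 genes were lower when any 1 of the 4 arrays compared was left out, and 0 were higher without K42Q replicate 2 or either K42L replicate.

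Core and regulatory particle genes kept close to each other. On each array the mean log2 signal of the 14 core genes, relative to wild type, was set beside that of the 18 regulatory particle genes. Core minus regulatory was 0.0026 and -0.04 on the K42A arrays, -0.02 and -0.05 in K42L, -0.05 and 0.01 in K42Q, and -0.000845, 0.0065 and -0.0057 in wild type. By medians of the fitted differences it was -0.04 in K42A, -0.02 in K42L and -0.05 in K42Q. These differences are smaller than the gap between the 2 K42Q arrays, and that of K42A turned to 0.03 with quantile scaling. Since the genes were chosen with earlier results known, no p is given for them.

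Within the regulatory particle the base lay below the lid on both K42L arrays. Base minus lid was -0.0021 and 0.0020 on the K42A arrays, -0.10 and -0.10 in K42L, -0.13 and -0.03 in K42Q, and -0.02, -0.02 and 0.04 in wild type. Both K42L arrays and K42Q replicate 1 lay well below wild type, and K42Q replicate 2 lay close to wild-type replicates 1 and 2. These differences were not tested. Alpha minus beta ran from -0.04 to 0.05 over the 9 arrays, with the K42Q arrays highest at 0.03 and 0.05, against -0.03, 0.02 and 0.01 in wild type. Both particles were lower on every other array than on wild-type replicates 2 and 3. On the 5 low-background arrays the core mean was -0.13 to -0.07 and the regulatory mean -0.10 to -0.07. On the K42A arrays, of high background, the core mean was -0.04 and -0.03 and the regulatory mean -0.05 and 0.01. On wild-type replicates 2 and 3 the core mean was 0.03 and 0.04 and the regulatory mean 0.02 and 0.05.

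**Figure D5:**
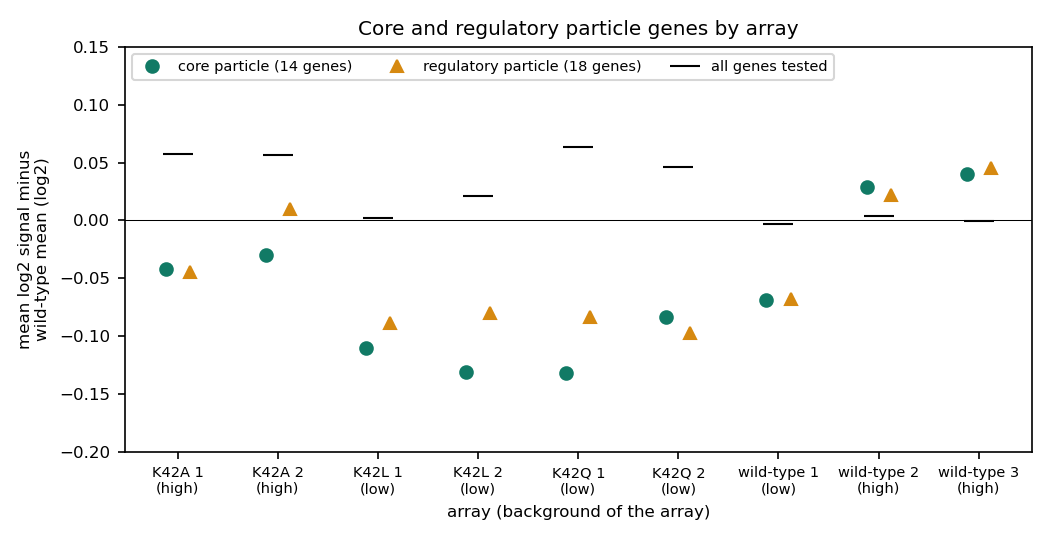
Mean log2 signal of the 14 core genes (circles), the 18 regulatory particle genes (triangles) and all 4087 genes tested (dashes) on each array, minus the mean of the wild-type arrays; the background of the array is given in brackets. Circles and triangles lie close together on each array, and the 5 low-background arrays, wild-type replicate 1 among them, lie below wild-type replicates 2 and 3. The K42A arrays, of high background, also lie below these replicates, by less.

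Genes that serve the proteasome from outside the 35 were counted in the same comparisons, where 22.6% of all genes rose and 19.7% fell in K42A, 0.318% rose and 0.343% fell in K42L, and 21.4% rose and 18.2% fell in K42Q. Of 15 genes for assembly chaperones and factors that bind the proteasome, 5 rose and 0 fell in K42A, 0 changed in K42L, and 7 rose and 1 fell in K42Q, with medians of 0.07, 0.04 and 0.17. FUB1 (YCR076C), which encodes an inhibitor of the core particle, had signals of 119 and 110.2 in K42A, 76 and 77.9 in K42L, 122 and 129.9 in K42Q, and 81, 59.9 and 63.4 in wild type. FUB1 rose by 0.76 ± 0.13 in K42A and 0.90 ± 0.13 in K42Q (adjusted p of 0.00147 and 0.00063). SPG5 (YMR191W), needed for proteasome assembly in stationary phase, rose by 0.82 ± 0.10 in K42A and 0.57 ± 0.10 in K42Q, and HUL5 (YGL141W), a ubiquitin chain elongating ligase bound to the proteasome, by 0.63 ± 0.07 in K42A and 0.49 ± 0.07 in K42Q. CIC1, for an adaptor bound to the core particle that also serves ribosome assembly, fell by 0.50 ± 0.17 in K42Q (adjusted p of 0.0434) and stood at -0.11 in the batch-blocked fit. SEM1 (YDR363W-A), for a small lid subunit that is not among the 35, rose by 0.44 ± 0.10 in K42Q (adjusted p of 0.00809), with signals of 651 and 586 in K42Q against 438, 466 and 461 in wild type. This gene was picked after its values were seen.

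Of 29 tested genes for ubiquitin, its enzymes, shuttle factors and the unfoldase Cdc48 with its partners, 10 rose and 2 fell in K42A, 0 changed in K42L, and 8 rose and 2 fell in K42Q (medians of 0.10, -0.05 and 0.05). UBI4 (YLL039C), the stress-induced polyubiquitin gene, had signals of 799 and 937 in K42A, 291 and 315 in K42L, 1182 and 1099.6 in K42Q, and 356, 445 and 417 in wild type. K42A and K42Q lay far above wild type and K42L below it. UBI4 rose by 1.10 ± 0.11 in K42A and 1.496 ± 0.11 in K42Q (adjusted p of 8.2e-05 and 1.2e-05), and its difference in K42L, -0.42 ± 0.11, was not called (adjusted p of 0.115). The ubiquitin hydrolase gene DOA4 rose by 0.60 ± 0.13 in K42A and 0.62 ± 0.13 in K42Q, the shuttle factor gene DDI1 by 0.42 ± 0.13 in K42A and 0.50 ± 0.13 in K42Q, and UBC5, for a ubiquitin-conjugating enzyme, by 0.74 ± 0.20 in K42A (adjusted p of 0.0165), with -0.08 ± 0.20 in K42Q. In the batch-blocked fit UBC5 stood at 0.49 in K42A and 0.43 in K42Q, so that the K42Q value turned in direction. UBR2 was too dim to be tested.

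Of 4 genes for factors known to activate RPN4, 2 rose in K42A, 0 changed in K42L and 1 rose in K42Q (medians of 0.36, -0.17 and 0.12). YAP1 (YML007W), of the oxidative stress response, rose by 0.48 ± 0.13 in K42A (adjusted p of 0.015), with signals of 357 and 362 in K42A, 212 and 216 in K42L, 265.5 and 244 in K42Q, and 209, 279 and 292 in wild type. Both K42A signals of YAP1 stood above all others, and wild type spanned those of K42L and K42Q. In the batch-blocked fit YAP1 stood at 0.33 in K42A and 0.28 in K42Q. The K42Q value, -0.01 ± 0.13 without the block, thus turned in direction. PDR3 (YBL005W), of the multidrug response, rose by 0.39 ± 0.08 in K42A and by 0.38 ± 0.08 in K42Q (adjusted p of 0.00437 and 0.00447). The comparisons with wild type share their control arrays, so their agreement is not independent.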

How the data were processed

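Per the submitters' processing notes, signals were made with GCOS 1.4 and MAS5. The deposited values are signal intensities on a linear scale, 1 per probe set and array, and the trimmed mean (2% on each side) was 150.1 on all 9 arrays, so the authors had scaled them; the target is not given in the sources used here. Values were used as log2, and the 126 zeros among 98352 values were raised to 0.1, the lowest value above 0. A single S. cerevisiae gene was listed for 5498 of 10928 probe sets, matched by gene ID to the R64 RefSeq table. The brightest stood for each of 5449 genes. Tests kept the genes at or above the 25th percentile of average log2 intensity, which lies at 87.0 on the linear scale. Background was read from 1746 probe sets listed with a gene that the S. cerevisiae table does not hold, and the batch from its median on each array.

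Tests used R 4.3.3 with limma 3.58.1: 1 mean per group over all 9 arrays, an intensity trend, and Benjamini-Hochberg adjustment over 4087 genes; a gene was called at an adjusted p under 0.05. The fit was tested on simulated data with the spread of all 4087 genes and 200 of them changed in K42A, over 20 runs. It recovered 10.8% of changes of 0.25 and 62.3% of changes of 0.5 on the log2 scale, with 3.85 false calls per run. The simulation changed 200 genes, where 925 rose and 807 fell in K42A, and the adjustment depends on that number. In K42A the median half-width of the 95% interval was 0.16 over the 35 genes and 0.21 over all genes. Recovery among the 35 genes can therefore differ from these values. A gene that was not called can still have changed by an amount within its 95% interval. The genes, lists, roles and batch were chosen with earlier results of these data known. Per-array values are given by rule for UMP1, RPN4, BLM10 and, in each class, up to 3 called genes with the largest difference and the one with the smallest. SCL1, PRE9, RPN11, RPT1, RPT2, RPT3, RPT4, RPN5, RPN8, PRE7 and PRE8 were picked for this after their values were seen. From each related list up to 4 called genes with the largest difference were named. Alternatives were other scalings, filters, variance models, probe set rules and sets of arrays, a stricter threshold, and the replicate number or the batch as a block. Many of them share the same difference, such as the filters and the fit with no intensity trend. For K42A against wild type the batch block, the fit within the batch and the fit without wild-type replicate 1 also give the same difference. Counts of alternatives are therefore not counts of independent tests. Promoter motifs were not analysed here. Figures used Python 3.11.15 and matplotlib 3.10.9.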

Additional observations from a re-analysis of the deposited data

How the results depend on the processing

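With 2 arrays per mutant the unadjusted 95% interval of a difference from wild type had a median half-width of 0.16 on the log2 scale, and adjustment over all genes asks for more: the smallest difference called among the 35 genes was -0.23 (RPT6 in K42Q). Of 16 calls on the proteasome genes, 285 repeats under the alternatives kept the call and 113 lost it, with no change of sign. The cause was not tested for any change below.

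Leaving out each array in turn gave 1 to 3 genes higher and 0 to 3 lower in K42A, 0 to 14 lower in K42L, and 1 to 14 lower in K42Q, and in K42L and K42Q 0 were higher. Those maxima of 14 came without wild-type replicate 1. Without single arrays the median of the 35 genes ran from -0.056 to -0.0022 in K42A, -0.13 to -0.096 in K42L and -0.12 to -0.090 in K42Q. Core minus regulatory ran from -0.083 to 0.015 in K42A, -0.031 to -0.0092 in K42L and -0.075 to -0.013 in K42Q. Between mutants, 1 to 10 genes were higher and 0 lower in K42A against K42L, 0 to 2 higher and 0 to 2 lower in K42Q against K42L, and 0 to 9 higher and 0 lower in K42A against K42Q.

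Against wild type, K42A had 9 genes higher with quantile scaling, 8 with cyclic loess, 5 with spike-in scaling, and 1 each with median centring, no intensity trend, the compared groups alone, the replicate block, or an adjusted p under 0.01. It had 3 genes lower with median centring, 4 with array weights, 3 with the batch block and 5 within the batch. Of all 4087 genes 1198, 1161, 1129 and 1179 were lower in these fits. With median centring 734 of all genes rose, with no intensity trend 926, with the compared groups alone 708 and with the replicate block 746. The median of K42A was 0.080 with quantile scaling, -0.11 with median centring, 0.13 with cyclic loess and 0.15 with spike-in scaling. Its core minus regulatory was 0.028 with quantile scaling and 0.0044 with cyclic loess. K42L had 18 genes lower with array weights, where 925 of all 4087 genes were. Its median was -0.070 with spike-in scaling and -0.055 with the batch block and within the batch, and its core minus base was 0.016 and core minus lid -0.094. K42Q had 4 genes higher with quantile scaling, 6 with cyclic loess, and 1 with spike-in scaling or array weights. Of all 4087 genes 1282 rose and 1243 fell with array weights in K42Q. With the compared groups alone 527 of all genes fell, and with the replicate block 497, again in K42Q. It had 1 lower with quantile scaling, cyclic loess or an adjusted p under 0.01, 0 with spike-in scaling, 2 with the compared groups alone, the replicate block or within the batch, 17 with array weights and 3 with the batch block. Its median was -0.011 with quantile scaling, -0.15 with median centring, 0.028 with cyclic loess, 0.066 with spike-in scaling, and -0.031 with the batch block and within the batch. Its core minus regulatory was -0.017 with quantile scaling and -0.0027 with the batch block and within the batch, and core minus lid was -0.092. Spike-in scaling moved the median of all genes to 0.17 in K42A and 0.18 in K42Q. It shifts every gene of an array by the same amount. The 35 genes therefore stayed -0.01 and -0.11 from that median by construction, which is no separate check.

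K42A against K42L gave 15 genes higher with quantile scaling, 18 with cyclic loess, and 7 with the compared groups alone or array weights. It gave 2 with the batch block and 1 at an adjusted p under 0.01, and 1 was lower with the batch block. Of all 4087 genes 1151 were higher with the compared groups alone and 1141 with array weights. With the batch block 710 of all genes were higher and 621 lower. K42Q against K42L gave 4 higher with quantile scaling, 7 with cyclic loess, 3 with array weights, 2 with the batch block and 0 at an adjusted p under 0.01. It gave 0 lower with cyclic loess, spike-in scaling, the replicate block or an adjusted p under 0.01, and 2 with array weights or the batch block. Of all 4087 genes 1057 were higher and 1048 lower with array weights. With the batch block 1008 of all genes were higher and 1018 lower. K42A against K42Q gave 10 higher with quantile scaling, 1 with median centring, the replicate block or the batch block, and 4 with cyclic loess or the compared groups alone. It gave 0 with spike-in scaling or an adjusted p under 0.01, and 5 with array weights, and 1 was lower with the batch block. Of all 4087 genes 464 were higher with cyclic loess, 656 with the compared groups alone and 693 with array weights. With the batch block 357 of all genes were higher and 405 lower.

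Single genes changed direction in these fits. Uncalled in both fits, SCL1 moved to 0.25 in K42L and 0.22 in K42Q against wild type with the batch block and within the batch. Among changes that met the threshold, SCL1 in K42A against wild type was -0.21 with the batch block, within the batch and without wild-type replicate 1, PRE1 was 0.18 with quantile scaling, and RPN1 was 0.16 with quantile scaling and with cyclic loess. SCL1 was -0.46 in K42A against K42L and -0.43 in K42A against K42Q with the batch block. Same-numbered arrays did not deviate together, with correlations of -0.30 for K42Q and K42L and 0.18 at most, so the replicate block pairs numbers and not samples. A crossed pairing, chosen after seeing the data, made 2518 calls over all genes between K42Q and K42L, against 1845 for the same-number pairing, and 1446 against 1306 between K42A and K42Q; among the 35 it gave 4 higher and 4 lower, and 4 higher. Leaving the arrays of one batch out gave no value for K42A against K42L or K42Q, which share no batch.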
